A study of Bos taurus with 8 samples.

Results

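Divergent head-to-head junctions are the places where 2 neighbouring genes are transcribed away from each other, so that their 5′ ends face one another. Each junction was taken from the 3Kb windows of the deposited files as the last window of a gene on the - strand followed by the first window of a gene on the + strand, with at most 1 window without a gene name between them. On the 29 autosomes 1847 gene pairs met this rule. They held 4058 windows of the 902984 in the genome, and 335024 autosomal windows carried a gene name. Of the pairs, 1483 lay in 2 adjoining windows and 364 had an unnamed window between their genes.

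Genes in this arrangement often share a bidirectional promoter, a short stretch of DNA that starts transcription in both directions. Such promoters are typically CpG islands, and they are known for housekeeping genes, DNA repair genes, histone pairs and genes of the mitochondrion. CpG islands at active promoters usually lack methylation, whereas gene bodies and the 3′ ends of genes usually carry it. Promoter methylation is known to silence some genes of the germline and genes on one parental allele in imprinted regions.

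Methylation was measured by MIRA-Seq in un-treated dermal fibroblast cultures at passage 5 from 4 Holstein heifers, a dairy breed, and 4 Angus heifers, a beef breed. One library was made per animal, the heifers of both breeds were of the same stated age, and all cultures had been revived from storage and grown in the same medium. Sonicated genomic DNA was enriched with methyl-binding proteins and sequenced, so a window with more methylated CpG gave more reads. CpG density, pull-down efficiency and DNA copy number also move the count, and cannot be told apart here from the methylation of each CpG site. Levels are given as RPKM, the reads per Kb of window scaled to the total reads in windows. Fibroblast identity could not be checked, since expression was not analysed here.

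The libraries held between 18691111 and 35525554 reads in windows. The median junction received 12 to 40 reads over both of its gene windows, and 4 to 21 junctions per library had none. A window with 3 reads stands at 0.0281 to 0.0535 RPKM, and a level below that in a single library cannot be told from none. Angus 3 and Holstein 1 had lower levels at the junctions than the other libraries, with means of 0.167 and 0.181 RPKM against 0.248 to 0.300 in the other 6. These libraries were also the lowest in the first windows of other autosomal genes (0.201 and 0.230 RPKM). The same held where the 3′ ends of neighbouring genes face each other (0.390 and 0.437 RPKM), so their low level was not particular to divergent junctions. Comparisons that rest on them were repeated without both.

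The windows are a fixed grid, and a gene's first window is the first that bears its name in the direction of transcription. It holds the start and up to 3 Kb around it and may reach into the gene body. It can also lie inside the gene body where the window with the start bears another name. Each window carries the name of 1 gene, so where both starts of a pair fall in the same window, only 1 gene is named there. The other gene then counts from the next window that bears its name, and the pair is missed where there is none. Of the 3694 gene names, 2981 matched a RefSeq gene of a later assembly (ARS-UCD2.0). Where both partners were protein coding there, 1019 of 1082 pairs (94.2%) were direct neighbours. Most of these protein coding pairs were thus also neighbours in the later assembly, but their orientation there is not given here.

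The level at divergent junctions was low next to other places where genes meet. Mean RPKM over the gene windows of the junctions was 0.246 ± 0.0473 (SD, n = 8). It was 0.384 ± 0.0679 at 3426 same-strand junctions and 0.549 ± 0.0994 at 2315 tail-to-tail junctions, where the 3′ ends of both genes face each other. Divergent junctions were below same-strand junctions by 0.138 RPKM and below tail-to-tail junctions by 0.302 RPKM on average, in 8 of 8 libraries each. The exact two-sided sign-flip test over libraries gave p = 0.0078 for both, which is the smallest value that 8 libraries allow, and the same value after adjustment over 5 comparisons. Without Angus 3 and Holstein 1 the differences were -0.146 and -0.323 RPKM.

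**Figure D1:**
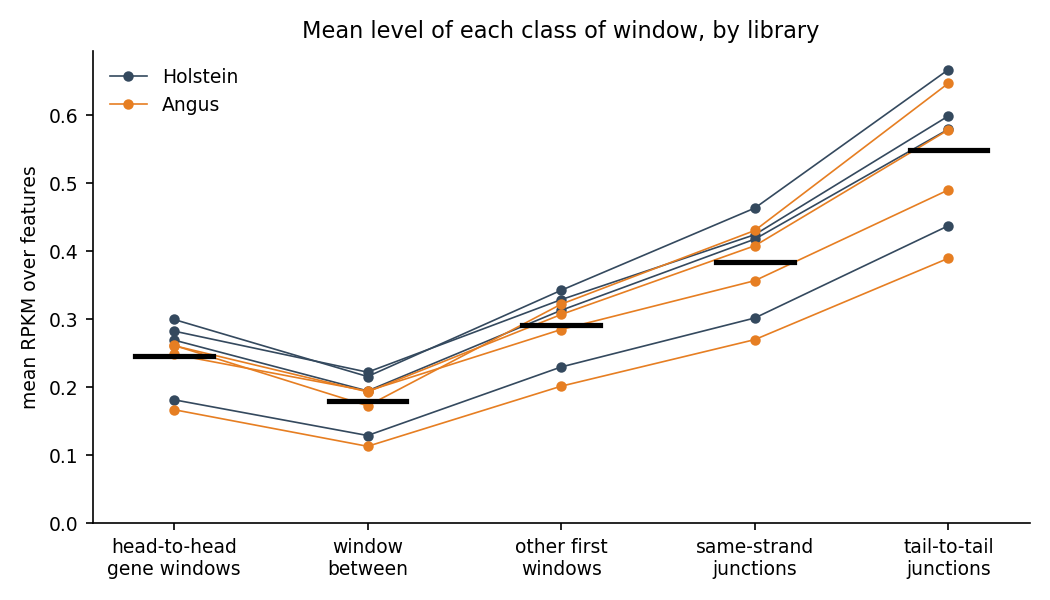
Mean RPKM over the features of each class (y axis) for the 8 libraries, joined by lines, with Holstein in dark blue and Angus in orange, and black bars at the mean of 8. Head-to-head gene windows lie below same-strand and tail-to-tail junctions in each library, and the unnamed window between the genes is lower still.

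Against the first windows of 20344 other autosomal genes the result depended on the average used. The mean of these windows was 0.291 ± 0.0501 RPKM, and divergent junctions were lower by 0.0449 ± 0.00793 RPKM (SD of the difference, n = 8), in 8 of 8 libraries (exact sign-flip p = 0.0078). With the windows among the top 1% by reads left out, the difference shrank to -0.00273 RPKM. With the median over features it turned to +0.0173 RPKM (adjusted exact p = 0.0098), and with the median over single gene windows it was +0.0034 RPKM (adjusted exact p = 0.5). The medians of the 8-library means were 0.136 RPKM over single divergent gene windows and 0.134 RPKM over other first windows, and the difference of the means lay mostly in windows among the top 1%.

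The profile around the junction had a dip at the centre. Among junctions of 2 windows, the median over junctions was 0.127 ± 0.0372 RPKM in the - gene window and 0.141 ± 0.0375 RPKM in the + gene window (SD, n = 8). The next windows away from the junction were at 0.157 and 0.162 RPKM, and the fourth at 0.171 and 0.175 RPKM. These windows were taken by position alone, so where a gene is short they lie beyond it. Tail-to-tail junctions had the opposite shape, with a peak of 0.373 and 0.349 RPKM at the junction.

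**Figure D2:**
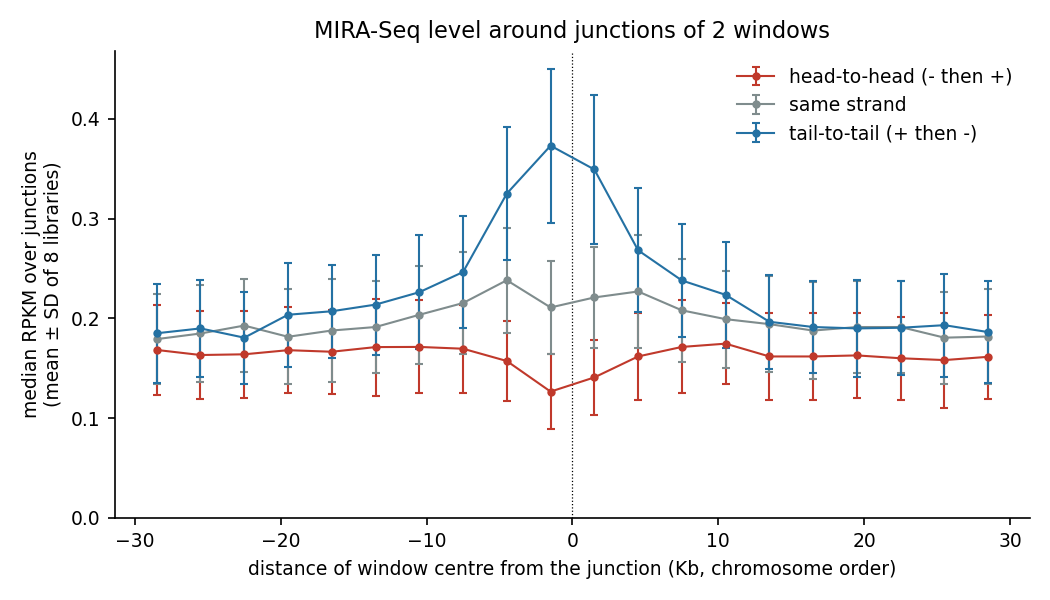
Median RPKM over junctions of 2 windows (y axis) by distance of the window centre from the junction in Kb (x axis, chromosome order), as mean ± SD of the 8 libraries, for head-to-head, same-strand and tail-to-tail pairs. The head-to-head line has its lowest values, 0.127 and 0.141 RPKM, in the windows that touch the junction.

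In the 364 junctions of 3 windows, the unnamed window between the genes lay lower than the gene windows on both sides of it. Its mean was 0.179 ± 0.0392 RPKM against 0.242 ± 0.0476 RPKM for its flanks, and it was lower in 8 of 8 libraries by 0.0626 ± 0.0159 RPKM (SD of the difference, exact sign-flip p = 0.0078). The + gene window exceeded the - gene window by 0.0224 ± 0.00479 RPKM, 0.258 against 0.235 RPKM, in 8 of 8 libraries (exact p = 0.0078). None of these 5 within-library differences was shown to differ between the breeds (exact permutation test of 4 against 4, adjusted p = 0.943 for each).

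Single junctions ranged widely around this level, which was low beside other junctions but not beside all autosomal windows. The mean over libraries had a median of 0.151 RPKM over the 1847 junctions, a 5th percentile of 0.0442 and a 95th percentile of 0.780 RPKM. A level above 0.5 RPKM was found for 213 junctions (11.5%), against 24.6% of same-strand and 40.9% of tail-to-tail junctions. Taken one by one, 11.6% of divergent gene windows exceeded 0.5 RPKM, with a median of 0.136 RPKM. Over all autosomal windows the share was 7.27% and the median 0.0972 RPKM. The order of the junctions was similar in all cultures. Spearman's correlation across junctions between libraries was 0.868 to 0.931 for pairs of one breed and 0.881 to 0.940 for pairs of different breeds, where junctions are not independent replicates and abundant CpG gives high counts in each library.

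The level was higher where the gene window reached further into coding sequence. The files list a coding exon number for a window where it holds one. In gene windows of junctions, the median was 0.111 ± 0.0324 RPKM in 1064 windows with no coding exon, 0.134 ± 0.0347 in 1870 windows listed with exon 1, 0.164 ± 0.0407 in 438 windows listed with exon 2 and 0.262 ± 0.0595 in 322 windows listed with exon 3 or a later one (SD, n = 8). The share above 0.5 RPKM in these classes was 4.98, 11.2, 17.1 and 28.3%. Other first windows gave the same order, with medians of 0.114, 0.138, 0.154 and 0.291 RPKM. These are descriptions and were not tested.

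Position along the chromosome was also related to the level. Of the junctions, 163 lay within 5 Mb of the high-coordinate end of their chromosome, and their median was 0.397 ± 0.0726 RPKM, against 0.142 ± 0.0358 RPKM for the other 1684. A level above 0.5 RPKM was found for 70 of the 163 (42.9%) and for 143 of the 1684 (8.49%). All autosomal windows showed a like difference, with medians of their 8-library means of 0.345 and 0.0925 RPKM. By chromosome the median, as the mean of 8 libraries, ran from 0.102 RPKM over the 38 junctions of chromosome 6 to 0.302 RPKM over the 72 of chromosome 25. This split was chosen after values had been seen and is given with no test.

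Junctions in which at least 1 gene spans a single window were higher, with a median of the 8-library mean of 0.200 RPKM over 462 junctions against 0.138 RPKM over 1385. Junctions between 2 genes with provisional LOC names had a median of 0.122 RPKM over 156 pairs, against 0.156 RPKM over 1140 pairs without one.

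The junction with the highest level was LMF2/NCAPH2 on chromosome 5 (UMD v3.1), which joins a lipase maturation factor and a subunit of the condensin II complex. The LMF2 window, chr5:120020506-120023505, had 12.1, 19.7 and 29.6 RPKM as lowest, median and highest of the 8 libraries. The NCAPH2 window next to it had 0.694, 1.23 and 1.48 RPKM. Coverage within the LMF2 window peaked at up to 2093 reads against 22 in the NCAPH2 window, so its reads were stacked in a narrow stretch in each library. The part of such stacking in the level was not tested.

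The other 9 of the 10 highest junctions had means from 1.37 to 2.22 RPKM. They were ATP4B/GRK1 (the beta subunit of the gastric proton pump and rhodopsin kinase, 2.22 RPKM), C8G/FBXW5 (a complement component and an F-box protein, 2.11), COBRA1/FAM166A (COBRA1 is a subunit of the negative elongation factor, 1.93), LOC100335608/CLN8 (1.72), LOC100847639/LOC100300830 (1.67), RNF224/RNF208 (1.41), WDR3/GDAP2 (1.41), TNNT3/LOC789200 (TNNT3 is troponin T of fast skeletal muscle, 1.40) and ACTL7B/ACTL7A (1.37). Several of these genes are known for a narrow tissue range, among them the stomach, the retina, skeletal muscle and, for the actin-like ACTL7A and ACTL7B, the testis. Others, such as the elongation factor subunit COBRA1, are not. A relation between tissue range and level was not tested. Of the 10 junctions, 7 lay within 5 Mb of the chromosome end. In ACTL7B/ACTL7A the ACTL7B window had 1.94, 2.23 and 2.55 RPKM as lowest, median and highest, and the ACTL7A window 0.336, 0.509 and 0.664 RPKM, so the sides did not overlap.

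By rank correlation, the 2 sides of a divergent junction were less alike than the sides of other junctions. Across the 1847 pairs, Spearman's correlation between the - gene and + gene windows was 0.415, with 0.332 to 0.423 in single libraries. It was 0.550 for same-strand and 0.707 for tail-to-tail junctions. Both windows exceeded 0.5 RPKM in 70 divergent junctions (3.79%), 1 window did so in 289 (15.6%) and neither in 1488 (80.6%). At tail-to-tail junctions both did so in 607 of 2315 (26.2%) and 1 window in 23.9%. At same-strand junctions 1 window did so in 23.4%. By this cut the sides thus differed less often at divergent junctions, where most pairs had neither window above it. Reads at divergent junctions were few, and the part of counting noise in their lower correlation was not tested. Adjoining windows share fragments that cross their border, and these correlations are descriptions without a test.

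A strong imbalance was defined as a level above 0.5 RPKM on one side, at least 4 times that of the other, with the same side higher in all 8 libraries. It was found at 159 junctions. The + gene window was the higher one in 107 of them and the - gene window in 52. With no minimum level or ratio, the + gene window was higher in all 8 libraries at 465 junctions and the - gene window at 365. Other kinds of junction were not counted by this rule, so the number is not a trait shown for divergent ones. First windows that may lie inside a gene body were not set apart. The higher side listed exon 3 or a later one in 29 cases (18.2%) and the lower side in 16 (10.1%). The examples that follow are among those with the largest ratios and were chosen after their values were seen.

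In the pair of IL18, a cytokine of the inflammasome pathway, and TEX12, a protein of the meiotic synaptonemal complex, the methylation signal lay on the side of the germline gene. The IL18 window, chr15:22825857-22828856, had 0, 0.0114 and 0.0252 RPKM as lowest, median and highest. The TEX12 window beside it had 0.384, 0.556 and 0.826 RPKM. The sides did not overlap, and the means differed 48.3-fold, with an IL18 mean below the level of 3 reads.

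Both proteasome subunits of PSMB11/PSMB5 form the same catalytic position in different proteasomes. PSMB11 is known for the cortical epithelium of the thymus, and PSMB5 for all cells. The PSMB11 window, chr10:21652401-21655400, had 1.04, 1.48 and 1.85 RPKM, and the PSMB5 window had 0.0126, 0.0615 and 0.128 RPKM. The restricted gene thus had the higher window in each culture, at a mean 23.2 times that of the ubiquitous one.

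Other imbalanced pairs held a gene that most cells use. In MRPL2/KLC4 the window of the mitochondrial ribosomal protein was at 0.0378, 0.0666 and 0.101 RPKM and that of the kinesin light chain at 0.996, 1.38 and 1.73 RPKM. In EMG1/PHB2 the prohibitin gene's window, which reaches exon 3, was the higher side, with a mean of 1.91 against 0.101 RPKM. Housekeeping partners were therefore found on both the lower and the higher side.

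In LOC100847516/SIM2 the window of SIM2, a developmental transcription factor, had a mean of 0.0333 RPKM against 1.10 RPKM for its partner. DUSP18/C17H5orf52 (1.06 against 0.0401 RPKM) and WDR3/GDAP2 (2.73 against 0.0846 RPKM) had the higher level on the - side. In the latter, coverage in the WDR3 window peaked at up to 246 reads, against 5 in the GDAP2 window. SNURF, a gene of an imprinted region in other mammals, had 0.354, 0.483 and 0.816 RPKM in its window, and LOC100139090 beside it had a mean of 0.0243 RPKM. LOC100847662 had no read in its window in any library, while LOC613282 beside it had a mean of 0.944 RPKM.

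**Figure D3:**
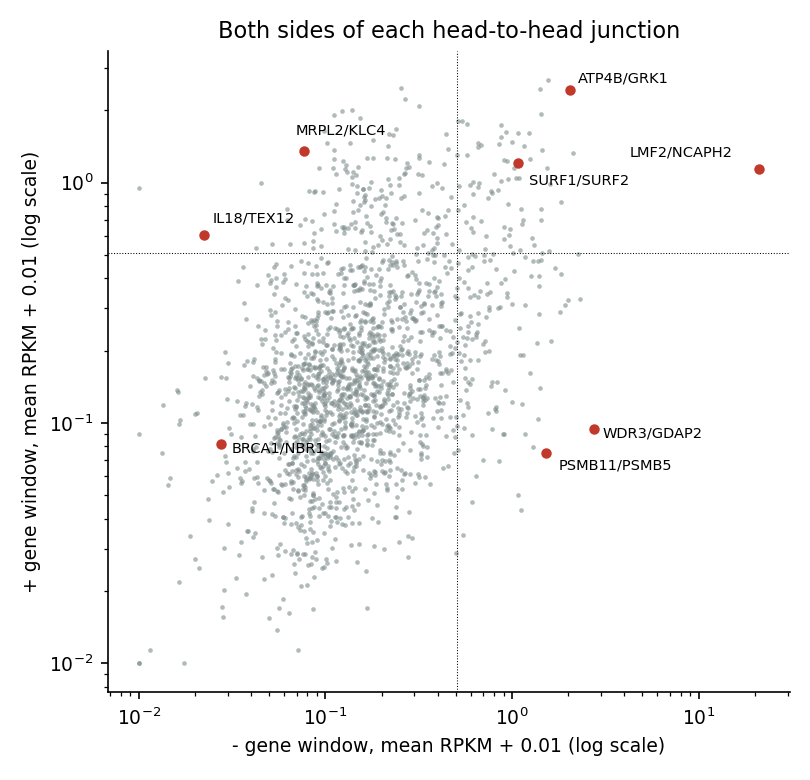
Mean RPKM of the 8 libraries plus 0.01 in the - gene window (x axis) and the + gene window (y axis) of each head-to-head junction, both on log scales, with dotted lines at 0.5 RPKM and some named pairs in red. Most of the 1847 pairs lie below both lines, and 289 exceed only one of them.

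Pairs known as textbook examples of bidirectional promoters had levels near those of all junctions. Of 35 such pairs, 20 formed a junction, with a median of 0.136 RPKM beside 0.151 RPKM over all junctions. Among the 20, 2 exceeded 0.5 RPKM, beside 213 of all 1847 junctions (11.5%). These differences were not tested. The lowest were BRCA1/NBR1 (a DNA repair gene and an autophagy receptor, 0.0448 RPKM), DNAJC2/PSMC2 (0.0518), THAP10/LRRC49 (0.0675), HADHB/HADHA (both subunits of the mitochondrial trifunctional protein, 0.0736), PRKDC/MCM4 (0.0791), PPAT/PAICS (purine synthesis, 0.0801) and HSPD1/HSPE1 (the mitochondrial chaperonins, 0.0835). Intermediate levels were found for SERPINI1/PDCD10 (0.107), PARG/TIMM23 (0.108), MSH5/CLIC1 (0.133), WDR37/IDI1 (0.140), DLG4/ACADVL (0.192), PSMB1/TBP (0.193), BRCA2/ZAR1L (0.202), POLR3A/RPS24 (0.213), U2AF1L4/PSENEN (0.252), TAP1/PSMB9 (0.296) and AFMID/TK1 (0.296).

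SARS2/MRPS12 and SURF1/SURF2 exceeded 0.5 RPKM. The first pair, a mitochondrial seryl-tRNA synthetase and a mitochondrial ribosomal protein, had 0.152 RPKM in the SARS2 window and 0.866 in the MRPS12 window. The second, from the surfeit locus, had 1.07 and 1.20 RPKM and a junction level of 0.750, 1.19 and 1.52 RPKM as lowest, median and highest library. SURF1/SURF2 was thus high on both sides in each culture. In BRCA2/ZAR1L the window of the repair gene had 0.0443 RPKM and that of ZAR1L, related to an oocyte gene, 0.359 RPKM.

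Genes of DNA repair and replication stood at 38 junctions, with a median of 0.162 RPKM and 4 above 0.5. XPO5/POLH had the lowest level (0.0414 RPKM), beside a translesion polymerase, and AP4M1/MCM7 the highest (1.24 RPKM). In the latter the MCM7 window, from a subunit of the replicative helicase, had 2.23 RPKM and the AP4M1 window 0.258 RPKM.

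Genes of the mitochondrial ribosome and respiratory chain stood at 59 junctions. Their median of 0.151 RPKM was that of all junctions, but 13 (22.0%) exceeded 0.5 RPKM. NDUFS1/EEF1B2 was lowest at 0.0417 RPKM and LOC618939/COX19 highest at 1.11 RPKM, with 1.92 RPKM in the LOC618939 window and 0.300 in that of COX19. MRPL34/ABHD8 had 0.0923 and 1.46 RPKM on its sides. The difference between this share and that over all junctions was not tested.

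Genes of the cytoplasmic ribosome stood at 21 junctions, with a median of 0.125 RPKM and 1 above 0.5, MED22/RPL7A at 0.732 RPKM. The lowest was TUBD1/RPS6KB1 (0.0547 RPKM), where RPS6KB1 is a kinase of a ribosomal protein and entered the list by its name. Histone genes stood at 11 junctions with a median of 0.0784 RPKM, from 0.0437 RPKM at LOC525511/HIST1H2BB to 0.519 RPKM at LOC521825/HIST1H2BA. HIST1H2BA is the testis form of histone H2B. Histone genes have near-identical copies, and how reads were divided between them is not given in the sources used here.

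Zinc finger genes stood at 41 junctions with a median of 0.136 RPKM, from 0.0259 RPKM at ZNF638/LOC789453 to 1.01 RPKM at ZNF511/TUBGCP2. Developmental transcription factors stood at 14, with a median of 0.139 RPKM. RSRC1/SHOX2 was lowest at 0.0402 RPKM, and LOC100848819/LHX2 highest at 0.670 RPKM. One collagen gene formed a junction, COL5A3/RDH8 at 0.137 RPKM.

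Germline genes stood at 6 junctions, with a median of 0.297 RPKM. The highest were C21H14orf2/TDRD9 (1.23 RPKM) and MLC1/MOV10L1 (1.08 RPKM), whose TDRD9 and MOV10L1 act in the piRNA pathway that silences transposons in the germline. The TDRD9 junction had 0.845, 1.32 and 1.42 RPKM as lowest, median and highest library, and the MOV10L1 junction 0.728, 1.15 and 1.32 RPKM. GDF9/UQCRQ, with an oocyte growth factor, was lowest at 0.0698 RPKM. The list was therefore not uniformly high.

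A list of innate immune and LPS response genes, which also took in the DNA methylation genes DNMT3A and UHRF1, stood at 11 junctions with a median of 0.221 RPKM and 1 above 0.5. Over the 9 junctions without these 2 genes, left out after the values were seen, the median was 0.130 RPKM and none exceeded 0.5, so the list lay above or below the 0.151 RPKM of all junctions with or without them. The lowest were LOC100847971/TAB2 (a signalling adaptor, 0.0226 RPKM), IRAK4/PUS7L (a Toll-like receptor kinase, 0.0648), NFKBIE/TMEM151B and SIRT2/NFKBIB (both with an inhibitor of NF-kB, 0.0882 and 0.116) and CD14/TMCO6 (an LPS co-receptor, 0.130). IRF3/BCL2L12 (0.221), ACAA1/MYD88 (0.228), UHRF1/ARRDC5 (UHRF1 guides maintenance methylation, 0.293), TAP1/PSMB9 (0.296) and TNF/LOC100847561 (0.396) followed. DNMT3A/LOC100848258, with a DNA methyltransferase, was highest at 0.519 RPKM.

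**Figure D4:**
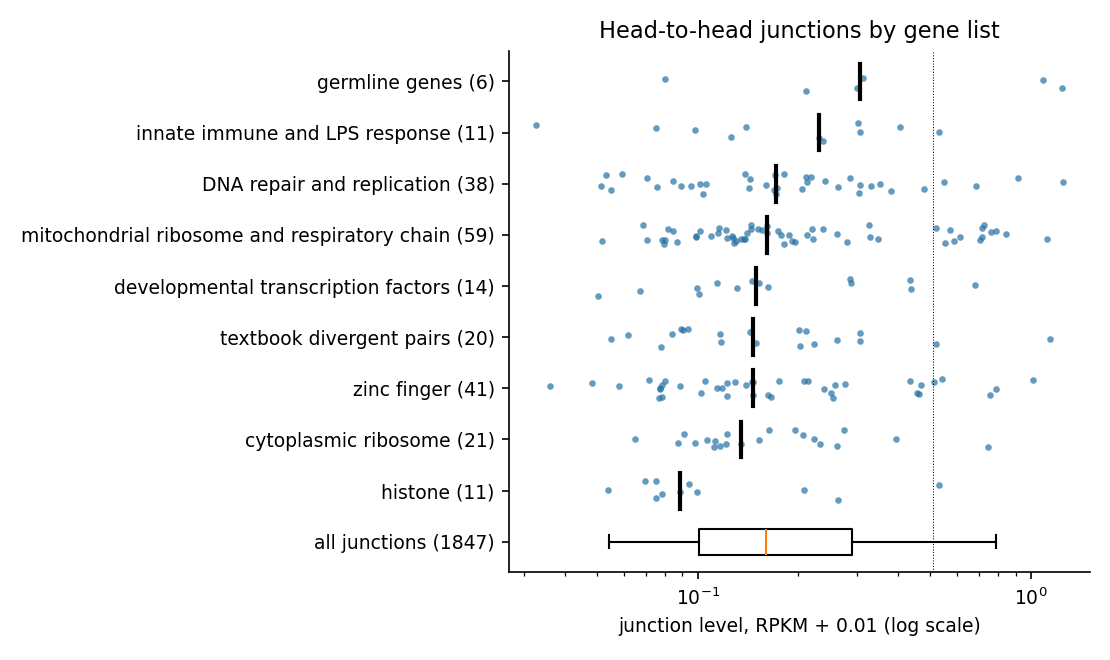
Junction level as RPKM plus 0.01 on a log scale (x axis) for each gene list, with the number of junctions, one point per junction and black bars at the medians; the box for all 1847 junctions spans the quartiles, its line is the median and its whiskers the 5th and 95th percentiles. Medians run from 0.0784 RPKM for histones to 0.297 RPKM for germline genes.

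Holstein and Angus cultures were compared to ask where methylation differs between the breeds. Mean RPKM over all junction windows was 0.252 ± 0.0517 in Holstein and 0.228 ± 0.0446 in Angus cultures (SD, n = 4 each), and the breeds overlapped. The difference of 0.0236 RPKM gave an exact two-sided permutation p of 0.457 (adjusted p = 0.543 over 3 comparisons), where 4 against 4 cannot go below 0.0286. It was 0.0266 RPKM without Angus 3 and Holstein 1, 0.00149 RPKM without Angus 3 alone, 0.0488 RPKM without Holstein 1 alone, and 4.12e-06 RPKM with TMM-scaled library sizes.

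Single windows were tested with edgeR's likelihood-ratio test over all windows that reached a CPM of 1 in 4 or more libraries. A differentially methylated region (DMR) had FDR < 0.1 and FC of at least 2. Of the 4058 junction windows, 805 (19.8%) passed the CPM filter, against 12.8% of all windows. Counts below refer only to those that passed.

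Among these 805 windows, 4 (0.497%) were DMRs, beside 0.231% over all 115360 tested windows. Higher methylation in Holstein was found in 1 (0.039% over all windows) and in Angus in 3 (0.192% over all windows). An unadjusted p under 0.05 was found for 45 (5.59%), beside 4.94% over all. The quasi-likelihood test called 3, beside 0.122% over all windows. Without the CPM filter 5 of 4050 were called, beside 0.102% over all, and 169 (4.17%) had an unadjusted p under 0.05, beside 4.55%.

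The typical log2 FC of junction windows lay near that of all windows under either scaling. With TMM, which centres most windows near 0, the median log2 FC of Holstein over Angus was 0.0013 in junction windows and -0.0021 in all windows, and 50.4% and 49.6% of them were higher in Holstein. With total counts in place of TMM the medians were 0.145 and 0.140, and the shares 79.5% and 77.5%. All 4 Holstein values lay above all 4 Angus values in 14 windows (1.74%, beside 1.38% over all), and the reverse held in 19 (2.36%, beside 1.25%). Windows named below are given as TMM-scaled CPM, on the scale used in the test.

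The largest breed difference was in the HIC1 window of MIR132/HIC1. HIC1 is a transcriptional repressor named for its hypermethylation in cancer, and MIR132 a microRNA gene. The window, chr19:23655275-23658274, is listed with coding exon 1 and is the first of 2 windows of the gene. Holstein cultures had 0.495, 0.464, 1.74 and 0.648 CPM, and Angus cultures had 2.46, 1.97, 2.83 and 4.48 CPM. Each Angus culture was above each Holstein culture, and Holstein 3 lay nearest to them. Log2 FC was -1.76 (SE 0.290, FDR = 7.6e-06 in edgeR's likelihood-ratio test), and the quasi-likelihood FDR was 0.0097, whereas DESeq2 gave 0.160. The windows of MIR132 and of the stretch between the genes did not pass the CPM filter, with Holstein and Angus means of 0.459 and 0.336 CPM and of 0.263 and 0.272 CPM. Fitted without the filter, their log2 FC was 0.49 and 0.06 (edgeR FDR = 1.00 for both).

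LHX2, a LIM-homeobox transcription factor of hair follicle and brain development, faces LOC100848819. The LHX2 window, chr11:95126785-95129784, is listed with coding exon 2 and is the first of 7. Holstein cultures had 1.24, 1.20, 2.26 and 0.926 CPM, and Angus cultures had 2.60, 2.64, 4.02 and 4.35 CPM. The breeds did not overlap. Log2 FC was -1.27 (SE 0.229, likelihood-ratio FDR = 8.2e-05 in edgeR), with a quasi-likelihood FDR of 0.0170 and a DESeq2 adjusted p of 0.105.

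The LOC100848819 window on the other side of this junction did not pass the threshold. It had 0.743, 1.58, 1.25 and 1.23 CPM in Holstein and 2.27, 1.87, 1.59 and 2.15 CPM in Angus cultures. Its log2 FC was -0.68 (edgeR FDR = 0.121). On the TMM scale, the values of both sides were lower in each Holstein culture than in each Angus culture. For LOC100848819 this rests on 1.58 CPM in Holstein 2 against 1.59 in Angus 3. There Holstein 2 held 41 reads and Angus 3 held 32, although Angus 3 had more reads in windows (29776884 against 23104769). The order of these libraries thus depended on the TMM scaling.

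CNTNAP1, a protein of the junction between axon and myelin, faces the chemokine receptor gene CCR10. Its window, chr19:43381475-43384474, is listed with coding exon 4 and is the first of 5. Holstein cultures had 0.867, 1.08, 1.18 and 0.903 CPM, and Angus cultures 2.20, 1.59, 2.73 and 2.88 CPM. The breeds did not overlap. Log2 FC was -1.19 (SE 0.212, likelihood-ratio FDR = 6.3e-05 in edgeR), and 0.0127 in the quasi-likelihood test, but with total counts only its FDR was 0.102. The CCR10 window did not pass the CPM filter, with means of 0.641 and 0.768 CPM.

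The window between LOC100294901 and LOC100295022, chr17:72895594-72898593, was higher in Holstein. Values were 1.36, 0.889, 2.12 and 1.41 CPM in Holstein and 0.660, 1.14, 0.397 and 0.366 CPM in Angus cultures. Here the breeds overlapped, with Holstein 2 below Angus 2. Log2 FC was 1.11 (SE 0.300, likelihood-ratio FDR = 0.0680 in edgeR), and the quasi-likelihood FDR was 0.310. The call was lost without Angus 1, Angus 3 or Angus 4 (FDR 0.200, 0.213 and 0.297), and without both Angus 3 and Holstein 1 (0.183). The gene windows on its sides had log2 FC of 0.65 (FDR = 0.197) and -0.28 (FDR = 1.00) in the same edgeR test.

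**Figure D5:**
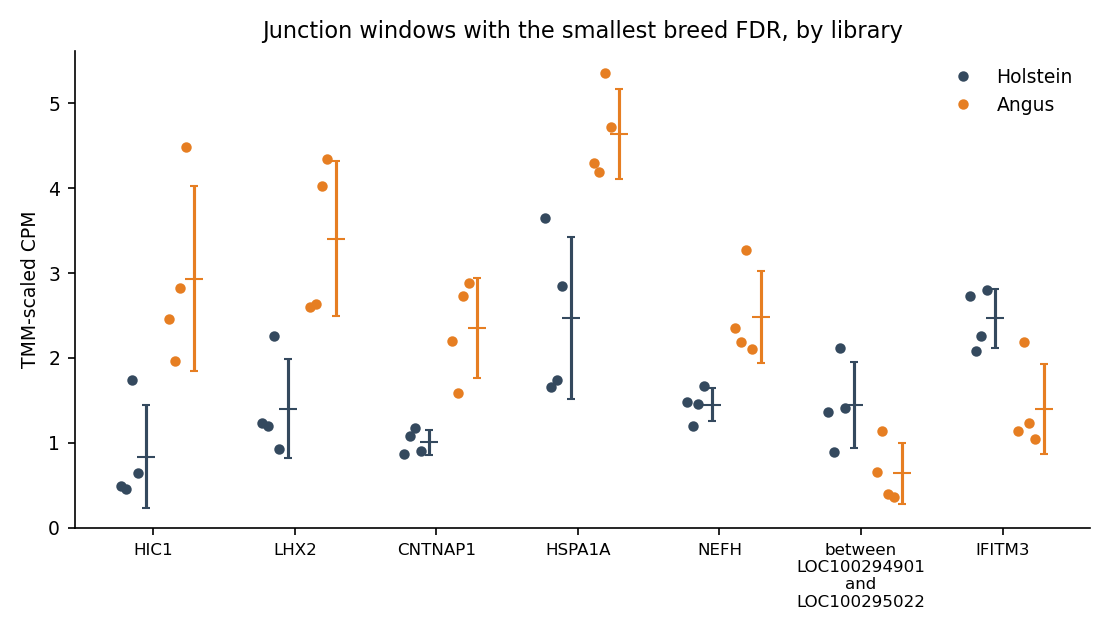
TMM-scaled CPM (y axis) of 7 junction windows in the 4 Holstein (dark blue) and 4 Angus (orange) libraries, with mean ± SD beside the points. The breeds do not overlap in HIC1, LHX2, CNTNAP1, HSPA1A and NEFH, and overlap in IFITM3 and in the window between LOC100294901 and LOC100295022.

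A further 3 windows passed the FDR but not the fold change minimum. HSPA1A, the stress-inducible HSP70, faces its testis-type relative HSPA1L, and its window had 3.65, 1.66, 1.74 and 2.85 CPM in Holstein and 4.29, 4.19, 5.36 and 4.71 CPM in Angus cultures. The breeds did not overlap, and log2 FC was -0.93 (SE 0.193, edgeR FDR = 0.0016), with a quasi-likelihood FDR of 0.0467. It became a DMR without Holstein 1 (log2 FC -1.11) or Holstein 4 (-1.03). HSP70 genes have near-identical copies, so its reads are uncertain.

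NEFH, the heavy neurofilament, faces LOC100847257, and its window had 1.49, 1.20, 1.46 and 1.67 CPM in Holstein and 2.35, 2.19, 3.27 and 2.10 CPM in Angus cultures. Its log2 FC was -0.74 (SE 0.184, edgeR FDR = 0.0286), with a quasi-likelihood FDR of 0.141. IFITM3, an interferon-induced antiviral membrane protein, faces LOC100847377, and its window had 2.72, 2.09, 2.26 and 2.80 CPM in Holstein and 1.14, 2.19, 1.24 and 1.05 CPM in Angus cultures. Angus 2 lay within the Holstein range, and log2 FC was 0.78 (SE 0.205, edgeR FDR = 0.0559), with a quasi-likelihood FDR of 0.223. Without Angus 2 it became a DMR (log2 FC 1.11, edgeR FDR = 0.00018).

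In the direction of higher Holstein values, the 5 largest log2 FC without overlap between the breeds did not pass the FDR. The largest was in the window between the apolipoprotein genes APOA4 and APOC3, with 1.98, 1.74, 1.77 and 1.46 CPM in Holstein and 1.39, 1.05, 1.14 and 0.503 CPM in Angus cultures. Its log2 FC was 0.71 (SE 0.221, edgeR FDR = 0.211). The others were the RUVBL2 window of GYS1/RUVBL2 (0.59), the window between ARSA and SHANK3 (0.53), the APBA3 window of MRPL54/APBA3 (0.53) and the TRAPPC2L window of GALNS/TRAPPC2L (0.53), with FDR from 0.478 to 0.859 in edgeR.

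One window was a DMR only without the CPM filter, that of LOC751810 facing LOC100299671, with log2 FC of -1.71 (edgeR FDR = 0.0437). It held 2, 6, 2 and 7 reads in Holstein and 24, 1, 18 and 7 reads in Angus cultures. The breeds overlapped, and Angus 1 and Angus 3 held most of its reads.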

How the data were processed

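MIRA-Seq libraries of 4 Holstein and 4 Angus cultures were used, grouped by the breed in the sample labels. The authors called bases with CASAVA 1.7 (per the labels), used NextGENe for alignment to UMD v3.1 and for counting in 3Kb windows. The deposited counts are raw. The deposited coverage per window (lowest, highest and mean) is a signal not scaled for depth, and was used only to look for stacked reads. How duplicate and multi-mapping reads were handled is not given in the sources used here.

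Junctions were formed from the gene name, strand and coding exon of each window. Members and gene lists were chosen with earlier results of these data known. Library sizes were the window totals (mean 26338814), RPKM was averaged over features, and classes were compared within libraries with exact sign-flip tests (Benjamini-Hochberg over 5) and breeds with exact permutation tests (over 3). Junctions of other kinds that share a window with a divergent one were left out (182 tail-to-tail, 78 same-strand).

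Breeds were compared with edgeR 4.0.16 under R 4.3.3 (TMM factors 0.677 to 1.22, likelihood-ratio test, Benjamini-Hochberg over all tested windows), with the quasi-likelihood test and DESeq2 1.42.0 as alternatives. SE is the size of log2 FC over the root of the likelihood ratio. The main likelihood-ratio test of the breeds was also run on simulated counts. Named were junctions with a DMR, the 5 largest non-overlapping windows per direction, the 10 highest junctions, all textbook pairs, and the highest and lowest of each list. Imbalanced pairs and windows past the FDR only were named after their values were seen, as were other members of the immune, DNA repair, mitochondrial and germline lists. Other alternatives were normalization, CPM filters, thresholds, autosomes only, each library left out in turn, and a block for animal number. Same-numbered animals of the breeds did not deviate together (mean correlation -0.0199, from -0.216 to 0.109). Replicate pairs within a breed differed beyond counting noise (chi-square per window 2.65 to 12.0). Sequence features of the promoters were not analysed here. One imbalanced pair is not reported here.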

Additional observations from a re-analysis of the deposited data

Results flagged for a closer look

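Of 60 groups of 4 libraries tested, 5 had 1 library far from the other 3, where the gap to the nearest library, divided by the range of the group, exceeded the 95% critical value of Dixon's test. Chance gives such a gap in about 1 of 20 groups. Angus 3 was the low library in 4 of them, which share the same windows. It was also the lowest library in other first windows (0.201 RPKM) and at tail-to-tail junctions (0.390 RPKM). The ratio was 0.859 for the mean RPKM of the gene windows of divergent junctions (0.167 RPKM in Angus 3 against 0.248 to 0.262 in the others), 0.875 over all junction windows, 0.878 for the - gene windows and 0.843 for the + gene windows. The fifth was the HIC1 window in Holstein cultures, with a ratio of 0.855, where Holstein 3 had 1.74 CPM and the others 0.464 to 0.648 CPM. Without Holstein 3 the log2 FC of HIC1 was -2.37.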

How the results depend on the processing

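Among the 805 junction windows tested, the number of DMRs was 4, and it was 7 with no fold change minimum, 1 (CNTNAP1) with DESeq2 and 1 (LHX2) where each of the 8 libraries had to reach a CPM of 1. Leaving out single libraries gave 3 to 5, and leaving out Angus 3 and Holstein 1 together, an alternative chosen after seeing the data, gave 6, with HSPA1A, ULBP11 and KRTAP9-2 added and the window between LOC100294901 and LOC100295022 lost. That window had log2 FC of 0.92 to 1.28 over the single libraries left out, and could not be tested without Holstein 1, 3 or 4 or Angus 2, where too few values passed the CPM filter. HIC1, LHX2 and CNTNAP1 were DMRs whichever single library was left out, with log2 FC from -2.37 to -1.48, -1.62 to -1.06 and -1.35 to -1.07. The difference between divergent junctions and other first windows reversed from -0.0449 RPKM to 0.0173 with the median over features and to 0.0034 with the median over single windows, chosen after seeing the data; the latter weighs each window alone, as for the other first windows. The other within-library differences kept their sign and side of the threshold under every alternative run. With the animal number as a replicate block the number of DMRs was 4 and the breed difference of junctions 0.0236 RPKM (exact sign-flip p = 0.625); the block changed no DMR call, but 11 windows in place of 7 had FDR < 0.1, among them the one between APOA4 and APOC3 (FDR 0.0638). The CPM filter kept 19.8% of the junction windows; without it 4050 were tested and 5 called, LOC751810 being the one added, and depth limits what can be seen in the low windows.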
